A study of Homo sapiens with 2 samples.

Results

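The 39 genes examined here encode the enzymes, regulators and lactate carriers that act on glucose after the hexokinase step, in glycolysis, lactate formation, the pentose phosphate pathway, gluconeogenesis and the glycerol 3-phosphate shuttle. They were taken by name from a list, by a rule that sets no threshold on their values, and 38 of them had a row among the 19989 genes of the table. PKLR, the pyruvate kinase of liver and red cells, had none. NCI-H716 cells are an established human line from a colorectal adenocarcinoma of the cecum and serve as a model of the L-cell, the intestinal endocrine cell that secretes glucagon-like peptide-1. The cells were expanded in suspension, plated on Matrigel, moved into DMEM with serum and antibiotics, and kept for 48 h with glucose at 5.5 mM (low) or 25 mM (high), the labelled difference between the samples. Polyadenylated RNA of 1 culture at each concentration was sequenced, so each ratio below compares a pair of libraries and has no replicate check, and another difference between the cultures cannot be told apart from glucose.

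Glycolysis splits glucose into pyruvate, and phosphofructokinase commits carbon to it under the control of fructose 2,6-bisphosphate, which the PFKFB enzymes make and degrade. Lactate dehydrogenase then turns pyruvate into lactate, while the pentose phosphate pathway draws off glucose 6-phosphate for ribose and NADPH, and gluconeogenesis runs the path backwards around its irreversible steps. Many of these steps are served by several isozymes that differ by tissue, and in the L-cell glucose metabolism is one of the signals linked to hormone release.

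The low glucose library held 21758044 estimated counts and the high glucose library 19456762. Levels are given as counts scaled to library size (CPM) with 95% Wilson intervals, and ratios as log2 of high over low glucose with 95% exact binomial intervals. Both kinds of interval cover counting error only. The limit taken for a gene with no counts was 3 counts, or 0.138 CPM (low) and 0.154 CPM (high), and the Wilson interval of such a gene reaches somewhat higher, to 0.177 CPM in low glucose. Of 9 enteroendocrine markers, 7 had a row and all 7 were above 1 CPM, with GCG, the proglucagon gene, at 1954 and 1808 CPM, while PYY and NEUROD1 had no row. The median log2 ratio of these 7 was 0.00, with a range from -0.11 for GCG (-0.13 to -0.09) to 0.11 for PCSK1 (0.08 to 0.15). Of 6 epithelial markers, KRT8 was at 270.0 and 291 CPM, KRT18 at 182 and 212 CPM, CDX2 at 30.5 and 38.2 CPM and VIL1 at 11.7 and 17.8 CPM, while EPCAM, at 3.37 and 3.50 CPM, and KRT19, at 1.49 and 0.987 CPM, were low. Of 6 markers of other cells, ALB, the albumin gene of liver, was at 456 and 487 CPM, PTPRC had no row, and the remaining 4 were under 1 CPM.

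Promoter sequence was available from RefSeq (GRCh38.p14) for 35 of the 39 genes. The 250 bases before each start were searched on both strands for CACGTG, the E-box core, for ACGTG, the core of hypoxia response elements, which lies inside CACGTG and so also matches there, and for TGATGCAA, an amino acid response element. CACGTG was in 5 of the 35 windows (14.3%), against 6.46% of all 27305 genes with a window. ACGTG was in 12 of them (34.3%), against 18.6%. TGATGCAA was in 0, against 0.828%. These shares describe letters in a window, with no adjustment for base composition. LDHA, which had the highest ratio of the members averaging at least 10 CPM, also had the most matches, with CACGTG at 2 places. The other expressed members with CACGTG, ALDOC, G6PC3 and GAPDH, had log2 ratios below 0 (-0.05, -0.07 and -0.10). Of those with ACGTG alone, ALDOA, ENO2, GPI and PC lay below 0 and PGK1, PGD and GPD1L above. The first LDHA site lies in the stretch upstream of every annotated LDHA exon (chr11:18394313-18394387, plus strand), and the second in a 30-base stretch that begins 93 bases before the RefSeq start, inside exons of other annotated LDHA transcripts (chr11:18394470-18394499). In the sequences, capitals mark matches to CACGTG or ACGTG, read on either strand.
LDHA, upstream stretch: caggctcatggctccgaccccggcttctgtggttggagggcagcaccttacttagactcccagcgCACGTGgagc
LDHA, second site: gactcaCACGTGggttcccgCACGTccgcc
PFKP and PFKFB3 are among the 7 members whose whole window is free of annotated exons. They were chosen as the lowest and the highest ratio of such members averaging at least 10 CPM. Neither window (chr10:3067720-3067969 and chr10:6144671-6144920, both plus strand) held any of the 3 motifs, so they carry no capitals. The PFKP window precedes a RefSeq start that lies inside the gene as GENCODE annotates it (start at 3066333), so it is not the region before the first annotated start.
PFKP: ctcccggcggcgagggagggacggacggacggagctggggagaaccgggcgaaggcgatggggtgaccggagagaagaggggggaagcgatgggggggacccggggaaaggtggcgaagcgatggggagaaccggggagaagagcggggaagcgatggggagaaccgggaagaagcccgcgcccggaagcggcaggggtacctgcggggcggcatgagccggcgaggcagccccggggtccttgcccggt
PFKFB3: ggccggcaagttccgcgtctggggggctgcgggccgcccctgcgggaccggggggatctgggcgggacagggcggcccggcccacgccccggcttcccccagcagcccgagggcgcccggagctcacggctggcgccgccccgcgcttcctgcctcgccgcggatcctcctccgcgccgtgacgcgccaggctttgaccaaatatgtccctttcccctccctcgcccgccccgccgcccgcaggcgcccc

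Levels of these genes spanned a wide range, from GAPDH at 5829 and 5457 CPM to genes near 0. Of the 38 with a row, 33 were at 1 CPM or more in both libraries, against 64% of all genes in the table, and 18 averaged at least 100 CPM. The 38 together took 2.22% of all CPM in low glucose and 2.25% in high glucose. GAPDH, PKM, ENO1, ALDOA and TPI1 were among the 50 genes of highest mean CPM, and PGK1, LDHA and LDHB brought the number among the top 100 to 8. The other 5 with a row, PFKFB1, PGAM2, TKTL1, FBP1 and FBP2, had a mean under 1 CPM. FBP1 and FBP2, the fructose bisphosphatases that oppose phosphofructokinase in gluconeogenesis, had about 3 counts or fewer in both libraries, as had the muscle mutase PGAM2 and PFKFB1. No ratio is given for these 4. TKTL1 rested on 2 counts in low and 4 in high glucose, with a log2 ratio of 1.06 (-1.65 to 4.62).

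**Figure D1:**
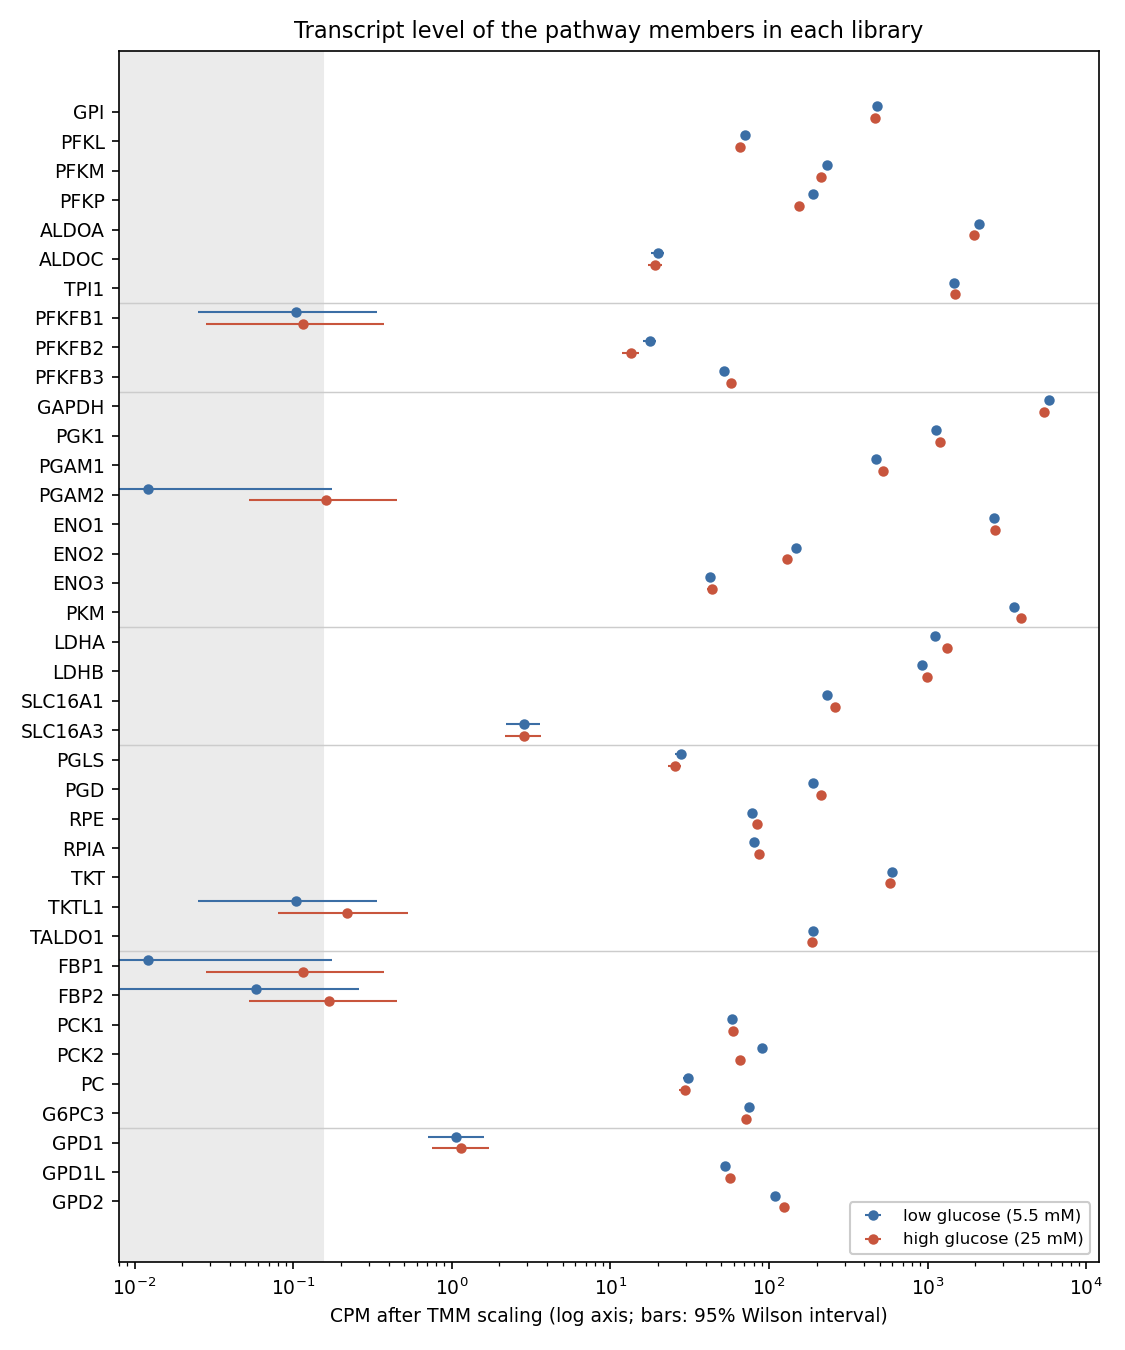
CPM (log axis) of each member with a row in the low (5.5 mM) and high (25 mM) glucose library, ordered by branch, with 95% Wilson intervals as bars and grey shading up to 0.154 CPM (3 counts in the high glucose library). GAPDH is highest in both libraries, and 5 members lie below 1 CPM.

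The levels of most members were close between the libraries. Over the 33 members that averaged at least 1 CPM, the median log2 ratio was 0.02, against -0.01 over all 13052 genes at that mean. Above 0 lay 18 members and below it 15, against 48.6% and 51.4% of all genes. At least 1.2-fold higher in high glucose were 0 members, against 6.43% of all genes, and at least 1.2-fold lower were 3 (9.09%), against 11.3%. The lower share is near that of all genes. Low genes vary more, however, and among genes averaging at least 10 CPM the same 3 were 9.68% of 31 members, against 4.82% of all genes (3.2% of all genes were higher there). The SD of the log2 ratio at that mean was 0.17 for the members and 0.16 for all genes. The 3 lower members were PCK2, PFKFB2 and PFKP. LDHA, at 1.197-fold higher, fell just short of the threshold and passed it with the libraries scaled by their totals or by median-of-ratios factors.

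**Figure D2:**
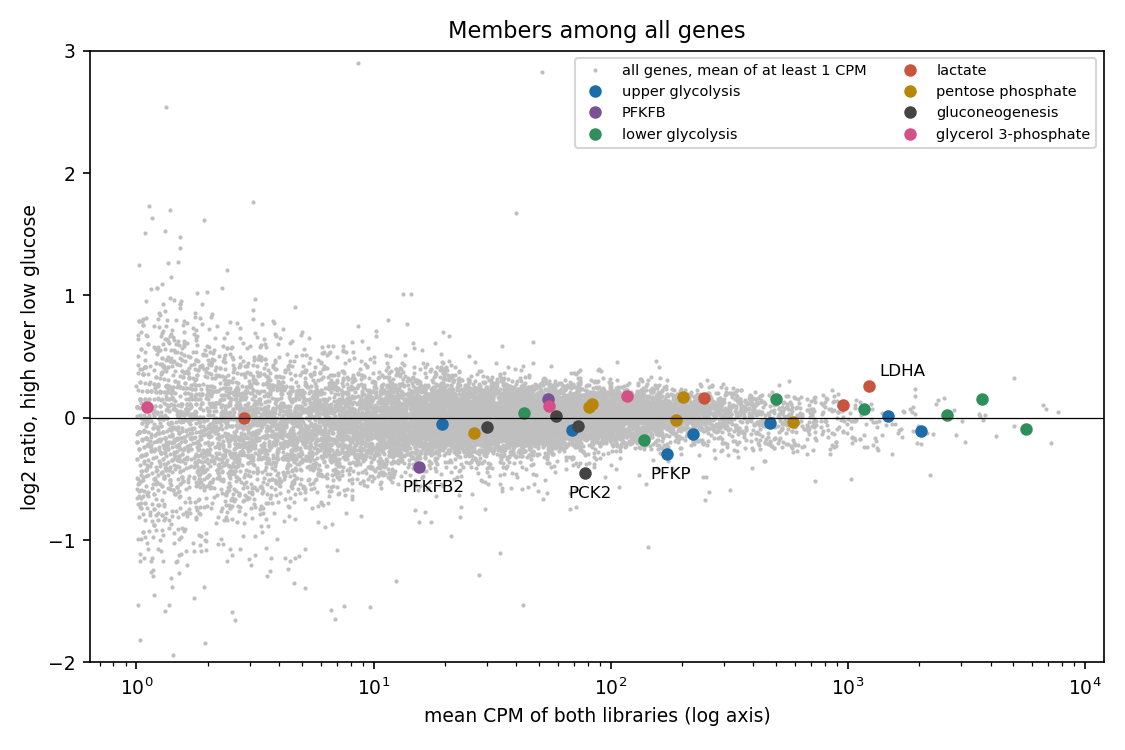
Log2 ratio of high over low glucose against mean CPM (log axis) for all genes averaging at least 1 CPM (grey) and for the members, coloured by branch. The members lie within the cloud of all genes, with LDHA toward the upper edge for its level and PCK2, PFKFB2 and PFKP toward the lower edge. A further 10 grey genes fall outside the vertical range.

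In the upper part of glycolysis, PFKP was lower in high glucose by more than 1.2-fold. Of the 7 members, 6 had a log2 ratio below 0, against 51.4% of all genes, and their summed level went from 4577 to 4362 CPM (log2 ratio -0.07, -0.08 to -0.06). PFKP, the platelet-type phosphofructokinase (chromosome 10, 3066333 to 3137712, plus strand, GRCh38), was at 190.4 CPM in low glucose (184.7 to 196.3) and 154.7 CPM in high glucose (149.3 to 160.3), a log2 ratio of -0.30 (-0.37 to -0.23). Its intervals did not overlap, and 25.9% of all genes averaging at least 100 CPM had a counting interval of the ratio below 0. PFKM, the muscle-type subunit, was at 233 and 213 CPM (-0.13, -0.19 to -0.07), and SENP1, which overlaps its exons on the opposite strand, at 42.5 and 43.2 CPM. The liver-type PFKL was at 70.8 and 66.1 CPM, with an interval of the log2 ratio that reached 0.01. ALDOA, the main aldolase, which splits fructose 1,6-bisphosphate, was at 2108 and 1953 CPM (-0.11, -0.13 to -0.09), and ALDOC, the brain-type aldolase, at 19.9 and 19.2 CPM (-0.05, -0.25 to 0.16). GPI, which converts glucose 6-phosphate to fructose 6-phosphate, was at 479 and 465 CPM (-0.04, -0.08 to -0.00). The isomerase gene TPI1, at 1475 and 1491 CPM (0.02, -0.01 to 0.04), was the one member of the group above 0. In this group PFKP thus lay farthest from 0, followed by PFKM.

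Of the 3 PFKFB genes among the members, PFKFB3 and PFKFB2 averaged at least 1 CPM and lay on opposite sides of 0. PFKFB3, the isozyme with the highest kinase activity, was at 51.8 CPM in low glucose (48.8 to 54.9) and 57.6 CPM in high glucose (54.3 to 61.0), a log2 ratio of 0.15 (0.03 to 0.27). PFKFB2, the heart-type isozyme (chromosome 1, 207034366 to 207081024, plus strand), was at 17.7 CPM (16.0 to 19.5) and 13.4 CPM (11.9 to 15.1), a log2 ratio of -0.40 (-0.63 to -0.17). The intervals of PFKFB2 did not overlap, whereas those of PFKFB3 did by a narrow margin. YOD1 shares 315 exon bases with PFKFB2 on the opposite strand and was at 17.0 and 16.6 CPM. The library kit does not mark strand, so reads in shared bases cannot be told apart, and the part of YOD1 in the PFKFB2 values was not tested. Relative to PFKFB3, a comparison that needs no scaling of the libraries, PFKFB2 was lower in high glucose by a log2 ratio of -0.55 (-0.81 to -0.30).

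In the lower part of glycolysis, the summed level was 13727 CPM in low and 13873 CPM in high glucose (0.02, 0.01 to 0.02). There were 5 members above 0 and 2 below, against 48.6% and 51.4% of all genes. GAPDH, the glyceraldehyde 3-phosphate dehydrogenase often used as a reference gene, was at 5829 and 5457 CPM (-0.10, -0.11 to -0.08). PKM, the pyruvate kinase of most tissues, was at 3488 and 3871 CPM (0.15, 0.14 to 0.16). PGAM1, the phosphoglycerate mutase, was at 472 and 526 CPM (0.16, 0.12 to 0.20). These are among the deepest counts of the table, so their intervals are narrow, while the ratios stay under the 1.2-fold threshold. The phosphoglycerate kinase gene PGK1 was at 1139 and 1196 CPM (0.07, 0.04 to 0.10). Among the enolases, ENO1 was at 2610.0 and 2649.9 CPM (0.02, 0.00 to 0.04) and ENO2, the neuronal and neuroendocrine enolase, at 147 and 129.9 CPM (-0.18, -0.26 to -0.10). ENO3, the muscle enolase, was at 42.5 and 43.6 CPM (0.04, -0.10 to 0.17), and PFN1, which overlaps it on the opposite strand by 111 exon bases, at 810.1 and 797 CPM. ENO2 was the lowest ratio of the group, and ENO2 relative to ENO1 was lower in high glucose by -0.20 (-0.28 to -0.13).

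The genes of lactate formation and transport were the branch with the highest summed ratio, from 2270 CPM in low to 2587 CPM in high glucose (0.19, 0.17 to 0.21). LDHA, the subunit of lactate dehydrogenase that predominates in muscle (chromosome 11, 18394388 to 18408425, plus strand), was at 1115 CPM (1101 to 1130) in low and 1335 CPM (1319 to 1351) in high glucose, a log2 ratio of 0.26 (0.23 to 0.28). LDHB, the heart-type subunit, was at 918 and 988 CPM (0.11, 0.08 to 0.13). SLC16A1, a proton-coupled lactate and pyruvate carrier, was at 234 and 262 CPM (0.16, 0.11 to 0.22). For each of these 3 genes the counting interval of the ratio lay above 0, as it did for 36.4% of all genes averaging at least 100 CPM. LDHA relative to LDHB was higher by 0.15 (0.12 to 0.19). SLC16A3, the lactate exporter of highly glycolytic cells, was at 2.83 CPM in both libraries, a log2 ratio of 0.00 (-0.55 to 0.56). It shares 482 exon bases with CSNK1D on the opposite strand, which was at 139 and 132 CPM.

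**Figure D3:**
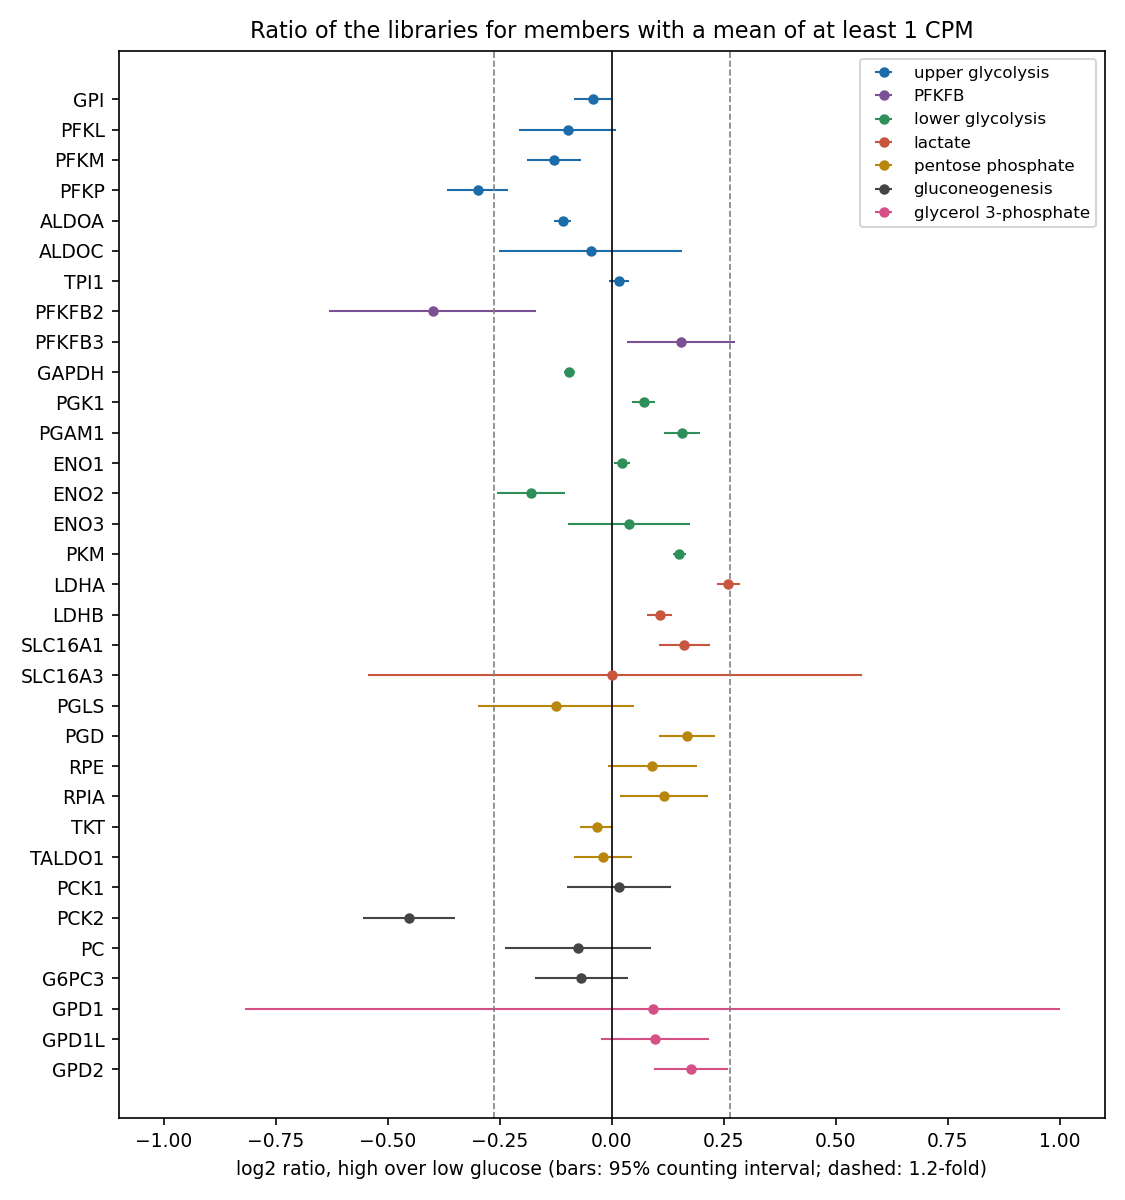
Log2 ratio of high over low glucose for the 33 members averaging at least 1 CPM, coloured by branch, with 95% counting intervals as bars and the 1.2-fold threshold as dashed lines. PCK2, PFKFB2 and PFKP lie beyond the lower line, and LDHA sits just inside the upper one.

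In the pentose phosphate pathway, the summed level was 1161 and 1177 CPM (0.02, -0.01 to 0.05). There were 3 members above 0 and 3 below, against 48.6% and 51.4% of all genes. PGD, the 6-phosphogluconate dehydrogenase that yields NADPH and ribulose 5-phosphate, was at 191 CPM in low and 214 CPM in high glucose (0.17, 0.11 to 0.23). The ribose 5-phosphate isomerase gene RPIA was at 80.0 and 86.7 CPM (0.12, 0.02 to 0.21) and the epimerase gene RPE at 78.7 and 83.8 CPM (0.09, -0.01 to 0.19). TKT and TALDO1, whose enzymes exchange carbon units with glycolysis, lay nearer 0. Transketolase (TKT) was at 593 and 579 CPM (-0.03, -0.07 to 0.00), transaldolase (TALDO1) at 190.2 and 188 CPM (-0.02, -0.08 to 0.04), and the lactonase gene PGLS at 27.7 and 25.4 CPM (-0.13, -0.30 to 0.05).

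Among the gluconeogenesis genes, PCK2 had the lowest ratio of all 33 members. PCK2, the mitochondrial phosphoenolpyruvate carboxykinase (chromosome 14, 24094053 to 24110598, plus strand, GRCh38), was at 90.1 CPM (86.2 to 94.2) in low and 65.8 CPM (62.3 to 69.5) in high glucose, a log2 ratio of -0.45 (-0.56 to -0.35). PCK1, its cytosolic counterpart, was at 58.4 and 59.1 CPM (0.02, -0.10 to 0.13), and PCK1 relative to PCK2 was higher by 0.47 (0.32 to 0.62). The interval of PCK1 includes 0, so only PCK2 and the ratio of the pair differed by more than counting error. Pyruvate carboxylase (PC) was at 30.9 and 29.4 CPM (-0.07, -0.24 to 0.09), and LRFN4, which shares 621 exon bases with it on the opposite strand, at 31.1 and 24.8 CPM. The ubiquitous glucose 6-phosphatase gene G6PC3 was at 74.9 and 71.4 CPM (-0.07, -0.17 to 0.04). Of the glycerol 3-phosphate dehydrogenases, the mitochondrial GPD2 was at 109.6 and 124 CPM (0.18, 0.09 to 0.26), while the cytosolic GPD1L, at 53.0 and 56.6 CPM (0.10, -0.03 to 0.22), and GPD1, at 1.07 and 1.14 CPM (0.09, -0.82 to 1.00), had intervals that include 0.

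Of 18 members averaging at least 100 CPM, 1 was lower by 1.2-fold (1.97% of all genes at that mean) and 0 higher (1.16%). Of these 18 members, 9 had a counting interval above 0 and 6 below, against 36.4% and 25.9% of all 2239 genes at that mean. At this depth small ratios exceed counting error in many genes, and no replicate gives the spread between cultures.

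To compare isozymes within a library, CPM was divided by the length of the transcript with the longest coding sequence (CPM per kb). Shares are over the members only, so that other genes of a family do not enter. In several families 1 member made up nearly the whole. ALDOA held 99.2% of the CPM per kb of ALDOA and ALDOC in both libraries, GPD1L 97.4% of the cytosolic glycerol 3-phosphate dehydrogenases in both, and ENO1 93.3% (93.1 to 93.5) and 93.8% (93.6 to 94.0) of enolase. PGAM1 and TKT were above 99.9% of their families. SLC16A1 held 98.9% and 99.0% of the pair with SLC16A3, but SLC16A7, a further lactate and pyruvate carrier that is not a member, was at 71.3 and 70.6 CPM. In contrast, phosphofructokinase, lactate dehydrogenase and phosphoenolpyruvate carboxykinase were divided between genes.

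PFKM held 43.4% (42.5 to 44.3) of phosphofructokinase CPM per kb in low and 45.4% (44.3 to 46.5) in high glucose, PFKP 42.3% (41.3 to 43.2) and 39.3% (38.2 to 40.4), and PFKL 14.3% and 15.3%. PFKM and PFKP overlapped in low glucose. With the union of exons as the length PFKP was the larger in both libraries, at 49.7% in low glucose. In high glucose it was then at 46.7%, against 42.5% for PFKM, so their order is not settled in either library. LDHB held 55.2% of lactate dehydrogenase CPM per kb in low and 52.6% in high glucose, but with the coding length LDHA was the larger, at 52.9% and 55.6%. PCK2 held 74.0% (72.6 to 75.3) and 67.2% (65.4 to 68.98) of phosphoenolpyruvate carboxykinase CPM per kb. It stayed above PCK1 with each length tried, at 60.0% and 52.0% with the coding length. PFKFB3 held 89.8% of the CPM per kb of PFKFB1, PFKFB2 and PFKFB3 in low and 92.7% in high glucose, with PFKFB4, which is not a member, left out. Shares depend on the length taken, while the direction of change between the libraries does not.

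**Figure D4:**
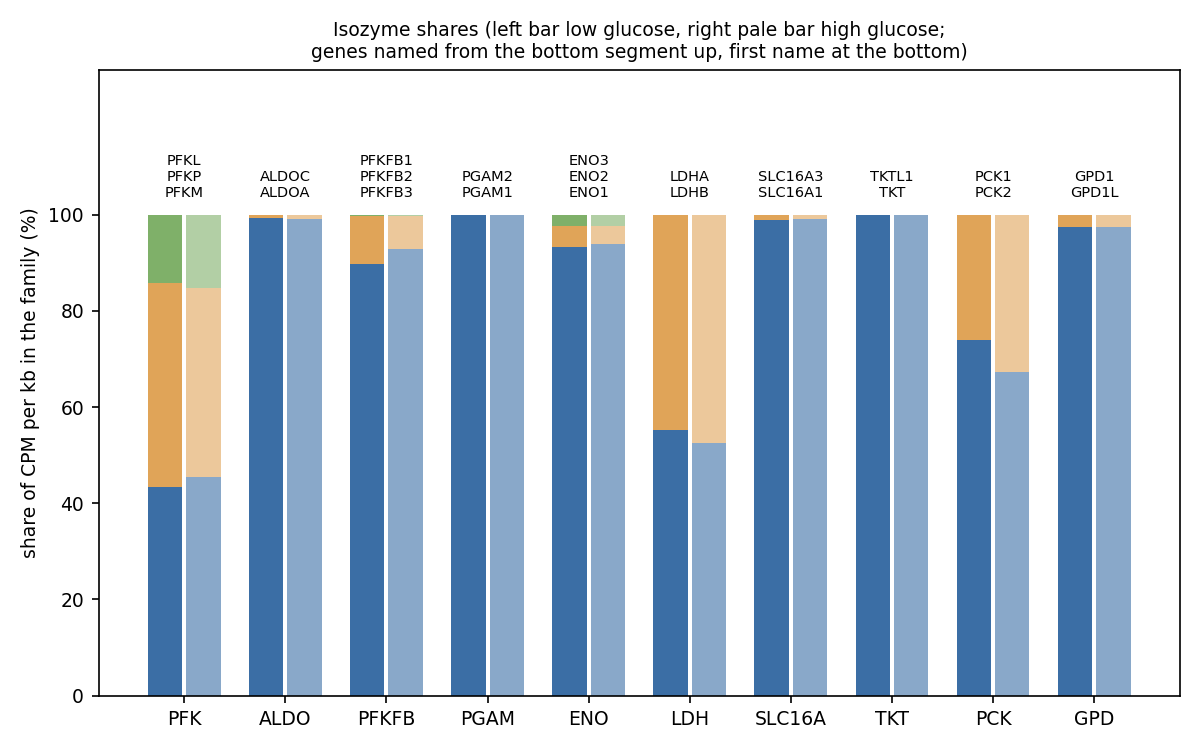
Share of CPM per kb of transcript (%) held by each isozyme in its family, in the low (left, full colour) and high (right, pale) glucose library, with the genes named from the bottom segment up. The PFK, LDH and PCK families are divided between genes, while 1 member fills most of each other family as listed. FBP is left out, since both its genes had about 3 counts or fewer.

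Along the pathway, summed CPM per kb was uneven between steps. GAPDH stood highest in low glucose at 3109 CPM per kb, with pyruvate kinase at 1284, aldolase at 1271, enolase at 1193 and lactate dehydrogenase at 1081. Phosphofructokinase (170 CPM per kb) and GPI (110) were the lowest steps, with phosphoglycerate kinase at 233 and phosphoglycerate mutase at 258. In high glucose, phosphofructokinase was at 148 and GPI at 107 CPM per kb. With the coding length, GAPDH remained the highest, at 5800 CPM per kb in low glucose, and phosphofructokinase and GPI the lowest pair, at 199 and 267, in exchanged order. Phosphoglycerate kinase was then at 910.3 and phosphoglycerate mutase at 619, also in exchanged order. Aldolase, at 1699, was then below the TPI step, at 1719, which was at 837 per kb of transcript. With the union of exons in low glucose, pyruvate kinase was at 407, below lactate dehydrogenase at 487. The order of the steps between the highest and the lowest pair is thus not settled. The level of a transcript does not give the amount or the activity of its enzyme.

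**Figure D5:**
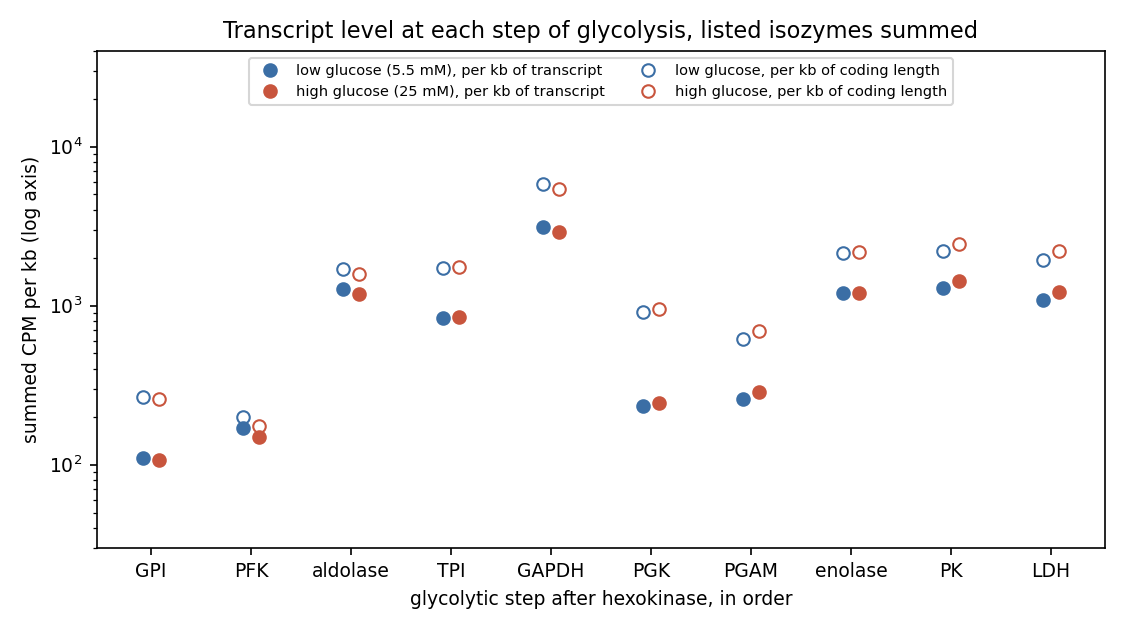
Summed CPM per kb (log axis) of the listed isozymes at each glycolytic step after hexokinase, in the low (blue) and high (red) glucose library, per kb of transcript (filled) and of coding length (open). GAPDH is the highest step and GPI and PFK the lowest pair on either length.

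Genes next to these pathways, in fructose, galactose, malate and pyruvate handling, were given as a fixed list of 34, of which 31 had a row and 28 a mean of at least 1 CPM. Their median log2 ratio was 0.04, with 0 higher and 0 lower by 1.2-fold, and a range from -0.16 for PFKFB4, a further regulator of fructose 2,6-bisphosphate, to 0.24 for GALM, the galactose mutarotase. BSG, the chaperone of the lactate carriers, was at 1568 and 1513 CPM. Of the hypoxia response genes, to which LDHA, PGK1 and PFKFB3 are also commonly counted, 9 had a mean of at least 1 CPM and their median was -0.26. VEGFA, ADM, ANKRD37 and KDM3A were lower by 1.2-fold (11.3% of all genes at that mean) and 0 were higher (6.43% of all genes), with EGLN3 the highest at 0.19 (0.05 to 0.33). Of the amino acid response genes, a group in which PCK2 is commonly placed, 9 of 10 were lower by 1.2-fold, with a median of -0.68. They were ASNS, CHAC1, DDIT3, DDIT4, TRIB3, SESN2, PHGDH, ATF5 and STC2. The share of all genes was the same 11.3%, and 4.82% of those averaging at least 10 CPM. The glucose-responsive TXNIP and ARRDC4 were higher, at 2.83 and 1.68. Of 6 epithelial markers, CDX2 and VIL1 were higher by 1.2-fold, with counting intervals above 0, and the median was 0.16. KRT19 was lower by 1.2-fold on 32.0 and 19.0 counts, with an interval that includes 0 (-1.50 to 0.27). These lists were chosen with earlier results of these data known, so their counts are description and no test. The part of these groups in the members' values was not tested.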

How the data were processed

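Polyadenylated RNA of NCI-H716 cells was sequenced with a TruSeq RNA v2 kit, which does not mark strand, in 1 library at each glucose concentration. Per the submitters' processing notes and the methods of the study, the authors trimmed reads (Trim Galore 0.5.0), aligned them to GRCh38 (STAR 2.6.0), estimated gene counts (RSEM 1.3.1), removed genes with very low counts and used TMM in edgeR. The deposited values are CPM of each library, with a small prior added. Columns that hold log2 CPM, and those with the authors' mean and their fold of high over low glucose, were not used.

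The CPM worth of 1 count was recovered from the steps between low values, at 0.0460 in low and 0.0514 in high glucose, where 73.6% and 73.9% of values under 10 CPM were whole within 0.05. RSEM counts need not be whole, so no count model was run. CPM was divided by TMM factors of 0.998 and 1.002 computed here (trims of 30% and 5%), with Python 3.11.15, numpy 2.4.6, pandas 2.3.3 and scipy 1.17.1. No p-value was computed. A gene counts as different when past 1.2-fold at a mean of at least 1 CPM. Members and lists were chosen with earlier results of these data known. Values are given in full for members averaging at least 10 CPM, past 1.2-fold, or leading their family, and lists name the genes past 1.2-fold, besides their extremes and BSG, SLC16A7, GCG, ALB and the epithelial markers, which were chosen after their values were seen. Lengths and exons came from GENCODE 29 (GRCh38), a release close to the one that the study names. Genes were matched by symbol, so rows under other symbols would be missed. The calculations were tested on simulated whole counts without spread between cultures, so that test does not cover fractional counts or such spread.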

Additional observations from a re-analysis of the deposited data

How the results depend on the processing

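Of 223 recomputed values, 190 stayed within a limit and 33 moved. The limit was the counting interval, 1.5 times for counts of members, and for the members' median ratio the median half-width of their intervals. All 132 values of single members stayed, but the settings could move them little, with a largest shift of 0.044 in log2 ratio. Of the other 91 values, 58 stayed and 33 moved. Of these, 1 changed sign (the PFKFB sum, from 0.03, with an interval that includes 0, to -0.40). The count of members at least 1.2-fold higher was 0, and 1 with library totals or with median-of-ratios factors (LDHA), 7 at 1.1-fold and 4 with no filter, which admits genes of a few counts. The count of lower members was 3, and 0 at 1.5-fold. Without its most abundant member, the log2 ratio of the summed CPM was -0.035 for upper glycolysis (without ALDOA), -0.40 for PFKFB (without PFKFB3, which leaves PFKFB2 and the nearly silent PFKFB1), 0.092 for lower glycolysis (without GAPDH), 0.12 for the lactate genes (without LDHA), 0.076 for the pentose phosphate genes (without TKT) and -0.037 for gluconeogenesis (without PCK2). With the union of exons as length, the low glucose share was 40.3% for PFKM, 98.8% for ALDOA, 82.6% for PFKFB3, 91.8% for ENO1, 63.1% for LDHB, 99.3% for SLC16A1 and 71.5% for PCK2. With the coding length, chosen after seeing the data, it was 98.9% for ALDOA, 72.1% for PFKFB3, 47.1% for LDHB and 60.0% for PCK2. Length changes these shares by construction. No paired analysis was possible because there was 1 library at either concentration. Of the 112 annotated pseudogenes of members, 5 had a row, with 1.44 and 1.07 CPM in all. Pseudogene reads counted in the members' own rows, or in rows under other names, cannot be seen. Depth limits GPD1 and SLC16A3 most among the expressed members, as their intervals show.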

Other observations

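Exons of 12 members overlap those of another gene at a mean of at least 1 CPM, in 11 cases on the opposite strand, and for 9 members that gene reached at least 10% of the member's own mean. Besides the cases given above, RPE shares 837 exon bases with KANSL1L, which was at 23.5 CPM in low and 24.7 CPM in high glucose. PGAM2 shares 857 exon bases with DBNL (115 and 112 CPM), and PGAM2 had about 3 counts or fewer in both libraries.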
